A study of Mus musculus with 4 samples.

Results

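Ccr1, Ccr2, Ccrl2, Cxcr3, Cxcr4, Cxcr6 and Cx3cr1 encode receptors that read chemokine signals on the surface of leukocytes. These 7 genes were taken by name from the 21959 genes listed for dendritic cells (DCs) and T cells, and all 7 were listed for both cell types. The cells came from MC38 tumours, a transplantable mouse colon carcinoma, in mice that had received either PBS or X-Ray+O-IMDQ, described by the series as a prodrug that radiotherapy activates. The 4 groups were DCs and CD3+ T cells from PBS mice, and DCs and CD3+ T cells from X-Ray+O-IMDQ mice (called treated here), all collected 72 h after the second treatment. Each group had 1 labelled library, so every comparison is between libraries, with no replicate check and no p-value. The strain and age of the mice, the number of mice pooled and the sorting markers of the DCs are not given in the labels, and neither X-ray alone nor O-IMDQ alone is among the groups.

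Chemokines are small secreted proteins that form gradients, and cells carrying the matching receptor, a membrane protein coupled to inhibitory G proteins, move up them. Ccr1 and Ccr2 bind CC chemokines and are best known on monocytes and macrophages, Cxcr3 and Cxcr6 bind CXC chemokines and are typical of effector and tissue-resident T cells, Cxcr4 binds Cxcl12 and is found on many leukocytes, and Cx3cr1 binds the membrane-anchored chemokine Cx3cl1 and marks monocyte-derived cells and cytotoxic T cells. Ccrl2 is an atypical member that binds the attractant chemerin without passing on a signal of its own and presents it to neighbouring cells that carry the chemerin receptor Cmklr1.

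Total counts were between 14056428 (treated DCs) and 23797357 (PBS DCs), and a gene without counts may have had up to 3, which is between 0.126 and 0.213 CPM (counts scaled to library size). Reads amplified by PCR and lacking molecular identifiers do not each stand for a separate molecule, so intervals and floors cover counting error only. Many genes were at 0 in 1 library only: of the 7856 genes with at least 100 counts in PBS DCs, 942 (12.0%) had none in treated DCs, and in the other direction 213 of 6475 (3.29%) had none. In T cells the same held for 342 of 8606 genes (3.97%) in the treated library and 104 of 8219 (1.27%) in the PBS library. The T cell libraries carried all 15 T cell markers, with 46523 and 47563 counts of Cd8a but 17 and 252 counts of Cd4, in PBS and treated cells in that order. The DC libraries carried the integrin gene Itgax at 167 and 252 CPM, while the lineage factor Zbtb46 had 9 and 57 counts and the growth factor receptor Flt3 had 16 and 69. In PBS and treated DCs conventional DC markers summed to 60824 and 8939 CPM, of which the class II genes H2-Ab1 (49192 and 5892 CPM) and Cd74 (10707 and 1873 CPM) made up most, and 7 of the 15 markers were called higher and 5 lower. Macrophage markers summed to 8583 and 2287 CPM, so markers of more than 1 myeloid cell type were present. In such bulk samples fewer cells of a type and less RNA per cell cannot be told apart.

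The promoters of the 3 receptor genes that differed at least 2-fold between the DC libraries, Ccrl2, Cxcr3 and Cx3cr1, are shown first because the results below turn on these genes. They are RefSeq sequences on GRCm38.p6, each the 250 bases before the transcription start, read 5′ to 3′ on the minus strand, with a matched motif in capitals. The first of 3 listed Ccrl2 starts was taken, at chr9:111057519-111057768, and the windows of Cxcr3 and Cx3cr1 lie at chrX:101734148-101734397 and chr9:120068297-120068546.
Ccrl2: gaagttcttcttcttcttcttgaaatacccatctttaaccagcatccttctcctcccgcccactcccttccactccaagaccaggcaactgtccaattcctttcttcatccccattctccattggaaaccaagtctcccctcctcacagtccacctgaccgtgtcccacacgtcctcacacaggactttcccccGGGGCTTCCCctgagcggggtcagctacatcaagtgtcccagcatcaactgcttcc
Cxcr3: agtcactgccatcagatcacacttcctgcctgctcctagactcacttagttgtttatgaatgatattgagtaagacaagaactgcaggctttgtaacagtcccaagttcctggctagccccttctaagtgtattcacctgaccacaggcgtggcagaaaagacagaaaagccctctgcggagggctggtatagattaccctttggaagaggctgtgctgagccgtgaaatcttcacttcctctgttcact
Cx3cr1: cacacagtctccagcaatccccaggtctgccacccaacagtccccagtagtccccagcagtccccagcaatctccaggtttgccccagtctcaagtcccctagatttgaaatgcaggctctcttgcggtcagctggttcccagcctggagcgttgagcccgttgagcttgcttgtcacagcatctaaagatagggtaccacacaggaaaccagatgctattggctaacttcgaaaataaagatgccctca
The capitals in Ccrl2 mark a match to the NF-kB consensus that begins at position -56 from the start. The windows of the other listed Ccrl2 starts held no match. All 7 genes had a promoter window, 9 in total, of 300 bases from 250 before to 50 after the start, and both strands were searched for the core of the interferon-stimulated response element (GAAANNGAA), the STAT site (TTCNNNGAA) and the NF-kB consensus. These motifs occurred in 8.56%, 8.30% and 11.2% of all 32851 windows. Ccr1 held an NF-kB match, GGGAGGCTCC, at -74, and Ccr2 held an interferon-element match on the opposite strand, TTCTCTTTC, at -86. No match lay in the windows of Cxcr3, Cxcr4, Cxcr6 or Cx3cr1, which says only that these letters are absent there. The Cxcr4 window held 20 CpG dinucleotides, against a median of 7 over all windows and between 1 and 8 in the windows of the other 6 genes.

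The 2 cell types had different receptor profiles. Levels of different genes are compared as FPKM, which is per gene length. In PBS DCs the order was Ccrl2 (358 FPKM), Ccr1 (157), Ccr2 (36.4), Cxcr3 (5.15), Cxcr4 (2.02), Cx3cr1 (0.849) and Cxcr6 (0). In treated DCs Ccr1 (125 FPKM) stood ahead of Ccrl2 (111), followed by Ccr2 (45.0), Cx3cr1 (12.0) and Cxcr4 (3.03), with Cxcr3 and Cxcr6 listed at 0. Among the 7 genes the myeloid receptor Ccr1 and the atypical receptor Ccrl2 thus led in both DC libraries, in opposite order, and their counting intervals did not overlap in either.

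In PBS T cells the order was Cxcr6 (708 FPKM), Cxcr3 (56.0), Cx3cr1 (33.3), Ccrl2 (33.0), Ccr2 (21.9), Ccr1 (7.19) and Cxcr4 (0.504). Treated T cells had the same order, with Cxcr6 at 887, Cxcr3 at 91.2, Cx3cr1 at 54.2, Ccrl2 at 30.2, Ccr2 at 16.4, Ccr1 at 3.21 and Cxcr4 at 1.02 FPKM. Of the neighbours in these orders, Cx3cr1 and Ccrl2 in PBS T cells had overlapping counting intervals, from 32.1 to 34.6 and from 31.4 to 34.6 FPKM. All other neighbours with a count were apart by more than their intervals, but the spread between animals is not known.

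Cxcr6, the receptor for Cxcl16 on tissue-resident and cytotoxic T cells, was among the most abundant transcripts of T cells, at rank 99 of 12051 detected genes in the PBS library and 60 of 10768 in the treated one. Ccrl2 was at rank 202 of 10791 detected genes in PBS DCs and 531 of 9763 in treated DCs. Cxcr4 was the lowest detected member in 3 libraries and below all but Cx3cr1 and Cxcr6 in PBS DCs, with between 17 and 87 counts. Over 25 chemokine and chemerin receptors, the 7 genes held 74.2% of the summed FPKM in PBS DCs, 76.5% in treated DCs, 56.4% in PBS T cells and 53.7% in treated T cells. Ccrl2 alone held 47.5% in PBS DCs and 28.8% in treated DCs, and Cxcr6 alone held 46.5% in PBS T cells and 44.0% in treated T cells.

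**Figure D1:**
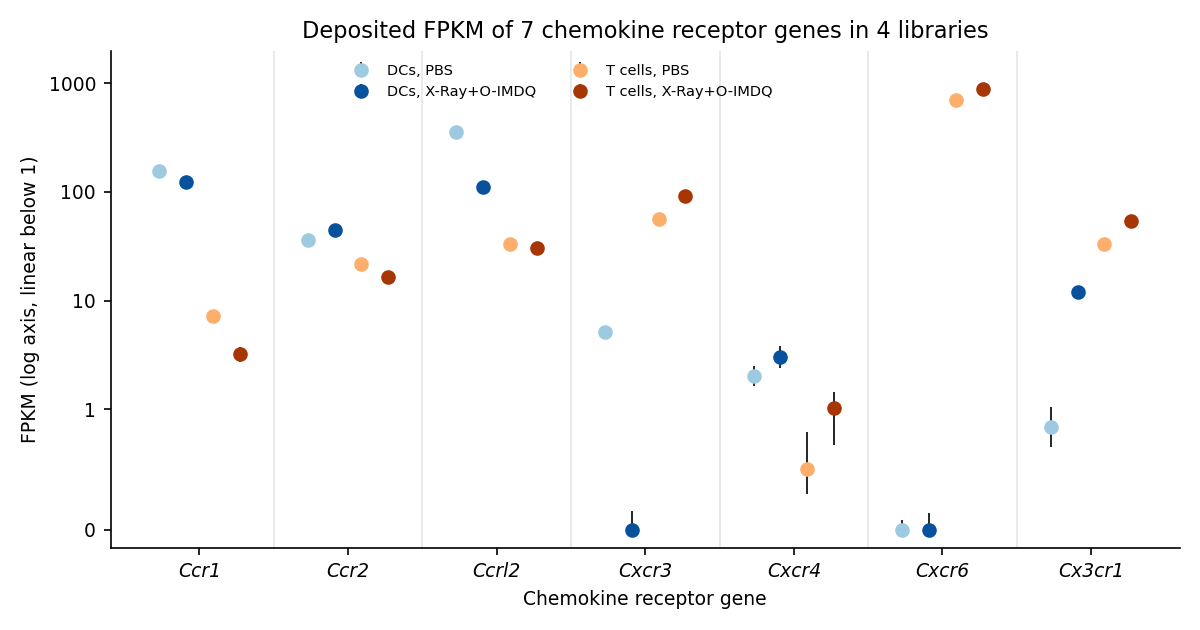
Deposited FPKM (vertical axis, logarithmic above 1 and linear below) of the 7 receptor genes in the 4 libraries, with exact Poisson 95% intervals that cover counting error only. Cxcr6 lies at 708 and 887 FPKM in T cells and at 0 in both DC libraries, while Ccr1, Ccr2, Ccrl2 and Cxcr4 are higher in both DC libraries than in both T cell libraries.

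The comparison within DCs asks how receptor transcripts in tumour DCs differed after X-Ray+O-IMDQ. Cx3cr1 was 14.7-fold higher in the treated library, Ccrl2 was 3.09-fold lower, and Cxcr3 was at least 40.1-fold lower, with no count left. Ccr1, Ccr2 and Cxcr4 differed by less than 2-fold, and Cxcr6 had no count in either DC library. A gene was called when scaled counts (TMM) were at least 2-fold apart, the exact binomial 95% interval of the log2 ratio excluded 0 and either library had at least 20 counts. Of the 6 receptor genes that passed this filter 3 were called, 1 higher and 2 lower, where 72.0% of all 10316 genes that passed were called, 30.2% higher and 41.8% lower. The median log2 ratio of the 6 genes, with Cxcr3 at its bound, was 0.05 and that of all genes -0.36. Since most genes differed between these libraries, a call sets no receptor apart from the rest of the transcriptome.

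Among the CC receptors, Ccr1, which binds Ccl3, Ccl5, Ccl6, Ccl7 and Ccl9, had 10587 counts (445 CPM) in PBS DCs and 4969 counts (354 CPM) in treated DCs. Its log2 ratio was -0.27 (interval -0.32 to -0.22) and turned to 0.08 when the median of all genes was set to 0, so no direction is given for it. Ccr2, the receptor for Ccl2, Ccl7 and Ccl12 that brings monocytes out of the marrow, had 5860 counts (246 CPM) and 4272 counts (304 CPM), a log2 ratio of 0.36 (0.31 to 0.42). Both CC receptors thus stayed within 2-fold. In the same libraries 7 of 13 measured macrophage markers were called lower and 6 neither. The part of macrophage RNA in the counts of these receptors was not tested. Monocyte markers summed to 1220 CPM in PBS DCs and 911 CPM in treated DCs, with 1 of 10 measured called higher and 5 lower.

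Ccrl2 had 22150 counts (931 CPM) in PBS DCs and 4067 counts (289 CPM) in treated DCs. The log2 ratio was -1.63 (-1.67 to -1.58), and 35.3% of all measured genes had a ratio as low or lower. This was the largest difference in counts among the 7 genes, and it placed Ccrl2 behind Ccr1. Of 13 measured macrophage markers 7 were called lower, 6 neither and none higher. Among the lower ones were C1qa at -4.65, C1qc at -3.18 and Cd68 at -2.31 on the log2 scale. Among those called neither were Adgre1 at 0.27 and Csf1r at 0.25. Conventional DC markers went both ways, with 7 of 15 called higher, 5 lower and 3 neither and a median log2 ratio of 0.65: Clec9a was at 3.45 and Zbtb46 at 3.48, and the class II genes H2-Ab1 and Cd74 at -3.00 and -2.46. The part of these markers in the Ccrl2 difference was not tested.

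Cxcr3, the receptor for the interferon-induced chemokines Cxcl9, Cxcl10 and Cxcl11, had 212 counts (8.91 CPM) in PBS DCs and 0 counts in treated DCs. A count of 0 allows up to 3 counts, which gives the bound of at least 40.1-fold, and the interval limit nearer 0 was -5.01 on the log2 scale. On the log2(CPM + 1) scale, which shrinks low values, the ratio was -3.28. Cxcr3 is best known as a T cell gene, and the 15 T cell markers summed to 129 CPM in PBS DCs and 107 CPM in treated DCs, with 5 and 7 of them at 0. Of the 9 measured, 3 were called higher, 5 lower and 1 neither. Lck and Cd3g had 607 and 576 counts in PBS DCs and 0 and 1 in treated DCs, while Cd3d had 434 and 812 counts and Cd3e and Cd4 were at 0 in both. The part of T cell RNA in the Cxcr3 counts was not tested.

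Cxcr4 had 87 counts (3.66 CPM) in PBS DCs and 77 counts (5.48 CPM) in treated DCs. Its log2 ratio of 0.64 had a wide interval, from 0.18 to 1.10, that reached past 2-fold. Cxcr6 was at 0 in both DC libraries, which allows up to 0.126 and 0.213 CPM, and no ratio can be given.

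Cx3cr1 had 91 counts (3.82 CPM) in PBS DCs and 759 counts (54.0 CPM) in treated DCs. The log2 ratio was 3.88 (3.56 to 4.21), higher than that of 91.4% of all measured genes. It ranged from 3.56 on the log2(CPM + 1) scale to 4.24 with the median of all genes set to 0. Alternatives that change only a count or fold threshold cannot move it. In FPKM the gene went from 0.849 to 12.0, passing Cxcr4. Cx3cr1 is also known on monocytes, macrophages and NK cells. NK cell markers summed to 301 CPM in PBS DCs and 494 CPM in treated DCs, with 6 and 4 of the 10 at 0. Klrk1, called neither, made up 260 and 368 CPM of these sums in the PBS and treated DC libraries. Ncr1 and Prf1 were at 0 in both, and Prf1 had 731 and 910 CPM in PBS and treated T cells. Of the 5 measured NK cell markers 3 were called higher, including Klre1 at 3.04 and Gzma at 3.91 on the log2 scale. The 1 called lower was Klra4, at -2.46. Of 13 measured macrophage markers 7 were called lower and 6 neither. The part of NK cell and macrophage markers in the Cx3cr1 difference was not tested. The listed span of Cx3cr1 on the minus strand of chromosome 9 overlaps 5 other listed genes, of which Csrnp1 had 733 and 1351 counts and Wdr48 had 386 and 68, and no source used here says whether counting was by strand.

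The comparison within T cells asks the same of CD3+ T cells. Ccr1 was 2.28-fold lower in the treated library, and the other 6 receptor genes differed by less than 2-fold. The 3 most abundant of the 7 genes in T cells, Cxcr6, Cxcr3 and Cx3cr1, had ratios above 1 and Ccr2 and Ccrl2 had ratios below 1. Of 7 genes measured 1 was called, as lower, where 43.7% of 11058 genes were called, 18.3% higher and 25.4% lower. The median log2 ratio was 0.30, and that of all genes -0.07.

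Ccr1 had 380 counts (20.4 CPM) in PBS T cells and 168 counts (9.10 CPM) in treated T cells, with a log2 ratio of -1.19 (-1.46 to -0.92). This gene is far more abundant in myeloid cells, and in the same libraries the macrophage gene Adgre1 went from 334 counts to 0 and Csf1r from 28 to 13, while summed macrophage markers were 292 and 315 CPM and Cd68 had 1362 and 2159 counts. The part of myeloid RNA in the Ccr1 counts was not tested. Ccr2 had 2755 counts (148 CPM) and 2043 counts (111 CPM), a log2 ratio of -0.44 (-0.53 to -0.36). Ccrl2 had 1597 counts (85.6 CPM) and 1450 counts (78.5 CPM), a log2 ratio of -0.15 (-0.26 to -0.05). Ccr1, Ccr2 and Ccrl2, the highest of the 7 genes in both DC libraries, therefore all had ratios below 1 in T cells.

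Cxcr3, which guides effector T cells to sites of interferon-gamma activity, had 1809 counts (97.0 CPM) in PBS T cells and 2914 counts (158 CPM) in treated T cells. Its log2 ratio was 0.67 (0.59 to 0.76). Cx3cr1 had 2800 counts (150 CPM) and 4512 counts (244 CPM), a log2 ratio of 0.68 (0.61 to 0.74). The ratios of these 2 receptors, both higher than that of 75.1% of all measured genes, were nearly equal at about 1.60-fold. Among genes overlapping the listed span of Cx3cr1, Wdr48 had 170 and 991 counts and Gorasp1 32 and 201 in these libraries. Csrnp1 had 2628 and 1439 and Ttc21a 147 and 87, and whether counting was by strand is not stated. Cxcr6 had 25481 counts (1366 CPM) and 31631 counts (1713 CPM), a log2 ratio of 0.30 (0.28 to 0.32), which is the narrowest interval of the set and still only 1.23-fold.

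Cxcr4 had 17 counts (0.912 CPM) in PBS T cells and 34 counts (1.84 CPM) in treated T cells. Its log2 ratio of 0.99 (0.11 to 1.92) lay at the threshold: it reached 1.01 with total-count or deposited FPKM scaling and 1.06 with the median of all genes set to 0, which would make it the only one of the 7 genes called higher in T cells. With so few counts the size of the Cxcr4 difference is not resolved at this depth. T cell markers summed to 18865 and 20344 CPM, with Cd4 as the only 1 of 15 called, and NK cell markers to 2690 and 3334 CPM with Ncr1 at 0 in both.

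**Figure D2:**
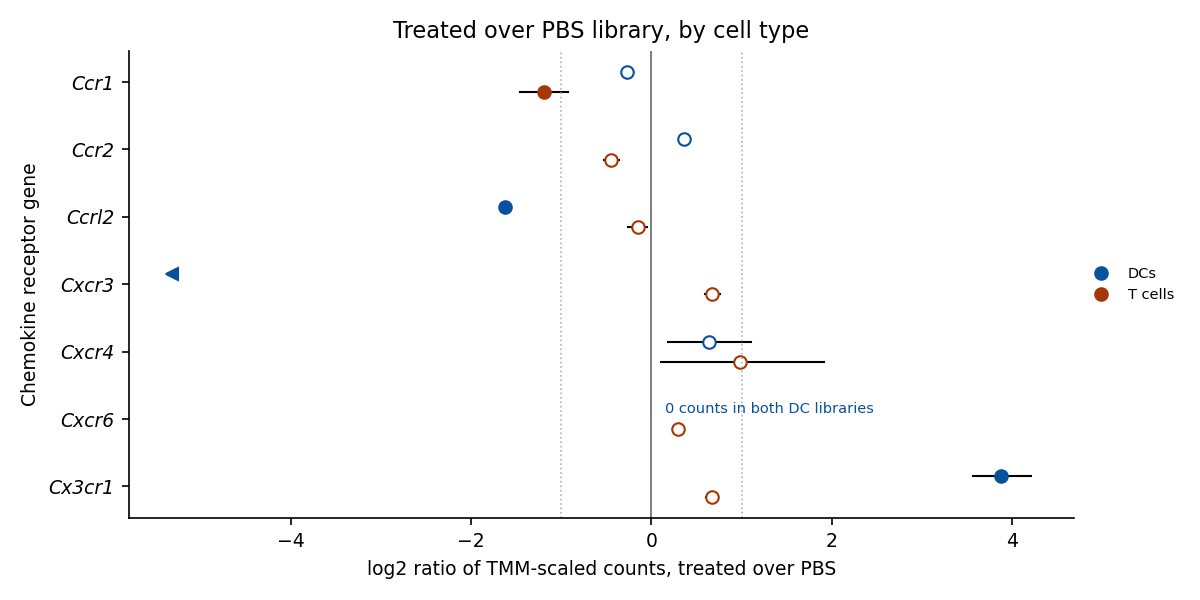
Log2 ratio of TMM-scaled counts, treated over PBS (horizontal axis), of each receptor gene in DCs and T cells, with exact binomial 95% intervals, filled markers for called genes, a triangle for a library at 0 and dotted lines at 2-fold. In DCs Cx3cr1 lies at 3.88 and Cxcr3 at its bound of -5.32, while in T cells all 7 genes lie between -1.19 and 0.99.

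Side by side, Cxcr3 and Ccr2 had ratios on opposite sides of 1 in the 2 cell types. Cxcr3 was without counts in treated DCs and had a log2 ratio of 0.67 in T cells, and Ccr2 had 0.36 in DCs and -0.44 in T cells. Cx3cr1 was above the PBS level in both cell types, at 3.88 in DCs and 0.68 in T cells on the log2 scale. So was Cxcr4, at 0.64 and 0.99, with few counts and no call in either. Ccrl2 was below the PBS level in both, at -1.63 and -0.15. Ccr1 was at -0.27 and -1.19, with no direction given for it in DCs. With 1 library per group these differences between cell types were not tested.

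The comparison of DCs with T cells asks which receptors each cell type carried, and it reuses the same 4 libraries. Ccr1, Ccr2, Ccrl2 and Cxcr4 were higher in DCs and Cxcr3, Cxcr6 and Cx3cr1 were higher in T cells, with PBS and after treatment alike. All 7 genes were called in both comparisons, 4 higher and 3 lower in DCs. Of all genes 60.3% of 11364 were called between the PBS libraries, 25.6% higher and 34.8% lower in DCs, and 74.4% of 10606 between the treated libraries, 31.1% higher and 43.4% lower. Scaling to total counts moved the share of higher genes among all PBS calls from 42.4% to 30.4%, and every log2 ratio then fell by 0.53 with PBS and by 0.65 after treatment.

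Ccr1 had the largest ratio on the DC side, 31.5-fold with PBS (log2 4.98, 4.83 to 5.13) and 60.8-fold after treatment (5.93, 5.70 to 6.16). Ccrl2 was 15.7-fold higher in DCs with PBS (3.97, 3.90 to 4.04) and 5.77-fold after treatment (2.53, 2.44 to 2.61). Ccr2 was 2.40-fold higher with PBS (1.27, 1.20 to 1.33) and 4.30-fold after treatment (2.10, 2.03 to 2.18). The PBS ratio of Ccr2 was the only one of these ratios to lose its call with another scaling, at 0.74 with total counts or deposited FPKM. Cxcr4 was 5.78-fold higher in PBS DCs (2.53, 1.77 to 3.38) and 4.65-fold in treated DCs (2.22, 1.62 to 2.85), with few counts in all libraries and a PBS value of 1.62 on the log2(CPM + 1) scale.

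Cxcr6 was at least 7516-fold lower in DCs with PBS and at least 5130-fold lower after treatment, with 0 counts in both DC libraries. Its neighbour on the opposite strand, Fyco1, had 13 and 342 counts in DCs and 278 and 256 in T cells. Of other genes abundant in these T cells, Cd8a had 1 and 0 counts in DCs and Prf1 none, whereas Cd8b1 had 517 and 254, Cd3d 434 and 812 and Klrk1 6184 and 5173. Cxcr3 was 7.55-fold lower in PBS DCs (-2.92, -3.13 to -2.71) and at least 473-fold lower in treated DCs. Cx3cr1 was 27.2-fold lower in PBS DCs (-4.77, -5.08 to -4.47) but only 2.89-fold lower in treated DCs (-1.53, -1.65 to -1.42). The ratios of Cx3cr1 and Ccrl2 thus lay nearer to 1 between the treated libraries than between the PBS libraries, and those of Ccr1, Ccr2 and Cxcr3 lay farther from it.

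**Figure D3:**
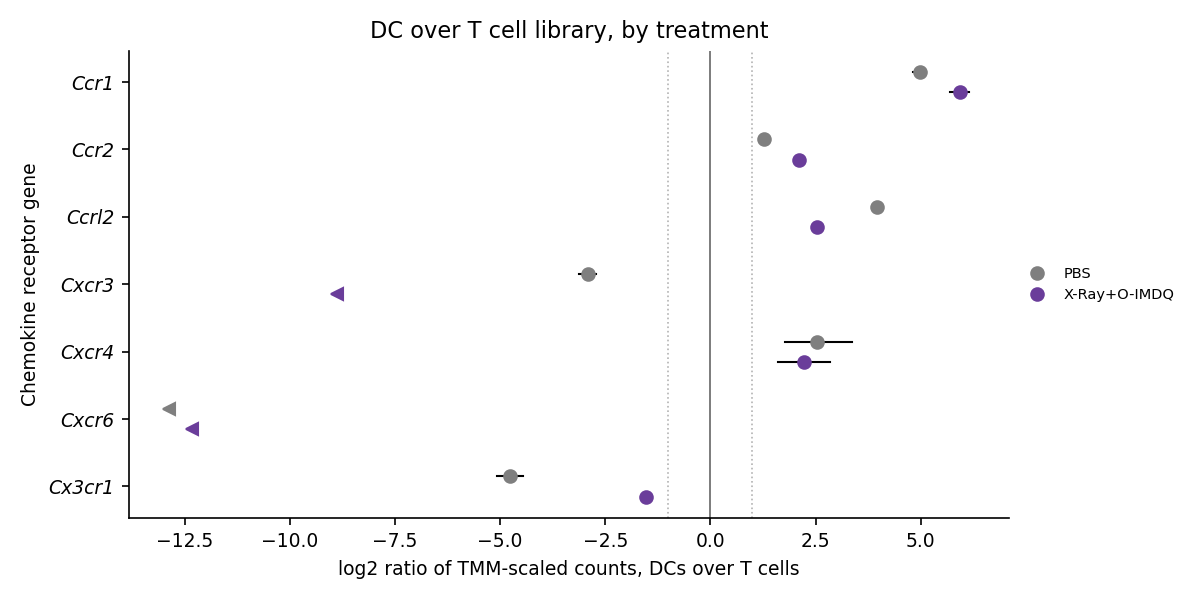
Log2 ratio of TMM-scaled counts, DCs over T cells (horizontal axis), of each receptor gene with PBS and after X-Ray+O-IMDQ, with exact binomial 95% intervals, triangles for a DC library at 0 and dotted lines at 2-fold. Ccr1, Ccr2, Ccrl2 and Cxcr4 lie to the right at both treatments and Cxcr3, Cxcr6 and Cx3cr1 to the left, with Cx3cr1 at -4.77 and -1.53.

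Call counts of the gene lists below stand beside those of all genes. In DCs 72.0% of all genes that passed were called, 30.2% higher and 41.8% lower. For T cells the share was 43.7%, with 18.3% higher and 25.4% lower. The other 18 chemokine and chemerin receptors were read as the family background. In DCs 7 were measured and 3 were called higher, 2 lower and 2 neither, with a median log2 ratio of 0.33. Cmklr1, the chemerin receptor to which Ccrl2 presents its ligand, had 226 counts in PBS DCs and 859 in treated DCs, a log2 ratio of 2.75 (2.53 to 2.96), opposite in sign to that of Ccrl2. Cxcr2, a neutrophil receptor, went from 0 to 246 counts. Neutrophil markers summed to 26.8 and 81.2 CPM, but 2 of the 4 measured were higher (S100a8 with 90 and 1009 counts, Ltf with 0 and 88) and 2 lower (Csf3r with 436 and 34, Mmp8 with 111 and 10), with S100a9 and Ly6g at 0 in both. Ccr7, which guides mature DCs to lymph nodes, had 8296 and 1382 counts, and Ccr8 went from 164 counts to 0 in the same pair of libraries as Cxcr3. Ccr9 and Xcr1 were the 2 called neither.

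In T cells 9 of the 18 were measured and 3 were called higher, 3 lower and 3 neither, with a median of -0.01. Ccr7 had 16698 counts in the PBS and 26421 in the treated library, a log2 ratio of 0.65, which together with Cxcr6 made it the other very abundant receptor of these T cells at 453 and 723 FPKM. Ccr8, with 4360 and 4312 counts, was at -0.03. Ackr3, an atypical receptor that takes up the Cxcr4 ligand Cxcl12, went from 317 counts to 0, and Ccr3 from 0 to 116. Ackr1 went from 9 to 136 counts and Ccr9 from 128 to 32, and Xcr1 (0 and 70 counts) and Ccr6 (56 and 0) complete the called genes.

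The list of ligands held 16 genes, among them Ccl4 and Ccl8, which are best known for receptors outside the 7. In DCs 14 were measured and 7 were called higher, 2 lower and 5 neither, with a median log2 ratio of 1.06. Of all genes in these libraries 72.0% were called, 30.2% higher and 41.8% lower. The higher ligands were mainly those of Ccr1 and Ccr2: Ccl6 had 13476 counts in PBS DCs and 136973 in treated DCs (log2 ratio 4.16), Ccl3 had 1296 and 5490 (2.90), Ccl2 had 32916 and 49028 (1.39) and Ccl7 had 35105 and 44908 (1.17). Thus transcripts of several ligands of Ccr1 and Ccr2 were higher in a library where transcripts of the receptors were within 2-fold. Cx3cl1, the ligand of Cx3cr1, had 153 counts in PBS DCs and 1 in treated DCs, a log2 ratio of -6.44 (-11.75 to -3.94), while Cx3cr1 was higher. Cxcl11 went from 235 counts to 2, with a ratio of -6.06 (-9.11 to -4.19), and its receptor Cxcr3 from 212 to 0. The other Cxcr3 ligands did not go the same way. Cxcl10 was called higher, with 3242 counts (136 CPM) in PBS DCs and 5203 counts (370 CPM) in treated DCs, and Cxcl9 had a log2 ratio of 0.79. Called neither were Ccl4, Ccl5, Ccl9, Cxcl9 and Cxcl16, the Cxcr6 ligand, which had 24410 and 8597 counts and a log2 ratio of -0.69.

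In T cells 14 ligands were measured and 3 were called higher, 3 lower and 8 neither, with a median of -0.06. The Cxcr3 ligand Cxcl10 had 309 counts in PBS T cells and 1359 in treated T cells, a log2 ratio of 2.12 (1.94 to 2.31), and Cxcl11 went from 0 to 104 counts. Ccl9 was called higher at 1.25, and Ccl12, Cxcl9 and Cx3cl1 were called lower. The 2 most abundant ligands, Ccl4 and Ccl5, had ratios of 0.12 and -0.14. Cxcl9 (135 and 67 counts) and Cxcl10, both ligands of Cxcr3, were thus called in opposite directions in T cells. Cxcl12, the Cxcr4 ligand, had 18 and 2 counts in DCs and none in T cells, and chemerin (Rarres2), the Ccrl2 ligand, had no count in any library.

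The list of signalling and desensitisation genes that act below G protein-coupled chemokine receptors held 31. In DCs all 31 were measured, 14 were called higher, 6 lower and 11 neither, and the median log2 ratio was 0.64. Among them Grk5, a kinase that silences activated receptors, had 1 count in PBS DCs and 805 in treated DCs, a ratio of 10.47 (7.99 to 15.78), and the related Grk3 had 411 and 1183. The G protein brakes Rgs2 and Rgs18 had ratios of 2.21 and 2.41, whereas Rgs19 was at -2.23. The migration GTPase Rac2 had 17953 and 1844 counts and its activator Prex1 had 485 and 15, ratios of -2.46 and -4.20, while Cdc42 was within 2-fold at -0.48. The phospholipase Plcb3 had 30 and 179 counts and the kinase Ptk2b 585 and 1583, ratios of 3.40 and 2.26, and the abundant Gng5 and Rgs1 were at 0.64 and 1.17. In T cells 29 were measured and 24 were called neither, with a median of 0.06. Gng5 was at -0.96 and Rac2 at 0.06. Plcb2 (67 and 271 counts), Elmo1 (1968 and 4220) and Rgs14 (597 and 1340) were higher, and Arrb1 (426 and 157) and Rgs10 (2265 and 1052) lower. Some genes were named after their values were seen: Xcr1 and Ccr9 in DCs, and Xcr1 and Ccr6 in T cells. So were Cxcl10 and the ligands called neither in DCs, and Ccl9, Ccl12, Cxcl9 and Cx3cl1 in T cells. The signalling genes among them were Elmo1, Rgs14, Arrb1 and Rgs10.

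**Figure D4:**
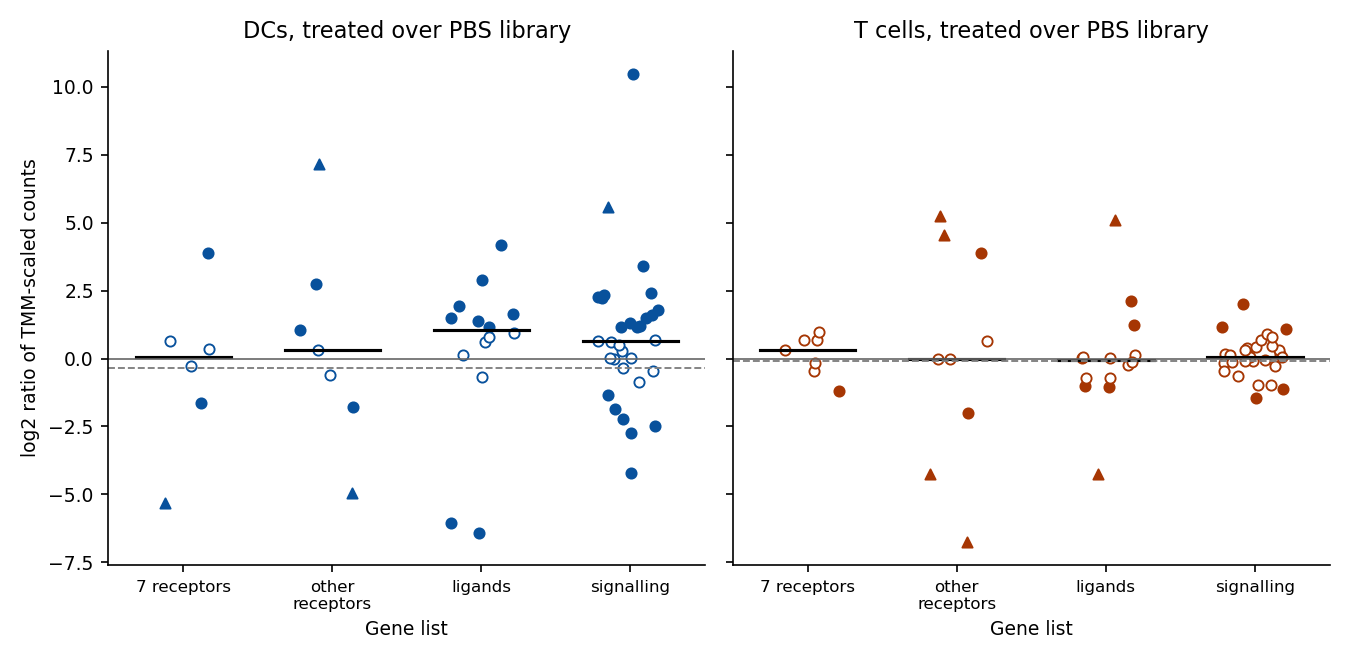
Log2 ratio of TMM-scaled counts, treated over PBS (vertical axis), of each measured gene of 4 lists in DCs (left) and T cells (right), with filled markers for called genes, triangles for a library at 0, a black bar at each list's median and a dashed line at the median of all genes. The ligand median lies at 1.06 in DCs and -0.06 in T cells, and that of the 7 receptors at 0.05 and 0.30.

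By position, 5 of the 7 genes lie on chromosome 9 of GRCm39. Cxcr6 (123635540 to 123640825, plus strand), Ccr1 (123762161 to 123768729, minus strand) and Ccr2 (123901987 to 123913594, plus strand) stand close together, Cx3cr1 spans 119730682 to 119898945 and Ccrl2 lies at 110883554 to 110886587, both on the minus strand. Cxcr3 is on chromosome X (100775141 to 100777875, minus strand) and Cxcr4 on chromosome 1 (128515936 to 128520030, minus strand). The 3 neighbours Cxcr6, Ccr1 and Ccr2 had unlike profiles: Cxcr6 had counts in the T cell libraries only, Ccr1 was mostly in DCs, and Ccr2 was present in both.

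To describe each profile further, the 2 genes nearest to each receptor were found by the Euclidean distance of centred log2(CPM + 1) values over the 4 libraries. Over 4 points that share their libraries such likeness is a description only. Cxcr3 was nearest to S1pr1, the receptor for lymphocyte egress (distance 0.21), and Dgka (0.27), which, like Cxcr3, had no count in treated DCs, from 8.40 and 7.10 CPM in PBS DCs. Cxcr6 was nearest to the T cell genes Cd8a (0.73) and Prf1 (0.91), and Cx3cr1 to Kif22 (0.33) and Trim12c (0.38). Ccr1 was nearest to Plcg2 (0.40) and Gapt (0.51), which were at 40.7 and 45.3 CPM in PBS DCs and below 2 CPM in both T cell libraries. Ccr2 was nearest to Man2b1 (0.10) and Mtpn (0.18), Ccrl2 to Cyp4f16 (0.20) and Smpdl3b (0.30), and Cxcr4 to Zfp639 (0.11) and Cerk (0.19).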

How the data were processed

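RNA was sequenced from 4 samples, 1 for each tumour cell type and treatment, and per the labels BGI did extraction, library construction and sequencing. Tools in the submitters' processing notes are the aligner HISAT2 (2.0.4), the quantifier RSEM (1.2.12), DESeq2 (1.24.0) and R (3.3.1), with GRCm39 as the build, but what each was used for here is not stated. For each cell type 1 deposited table holds raw read counts per gene in whole numbers, and FPKM that the authors scaled to gene length and counted reads (checked: FPKM equals the count over length and total within a relative difference of 2.04e-07). A library was assigned to its sample through the number of the read file in the description, which differs from the number in 3 of the titles, and 2 further PBS libraries (4 columns) match no sample and were not used here.

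Counts of the 2 libraries compared were scaled with TMM (edgeR 4.0.16, R 4.3.3), and log2 ratios carry an exact conditional binomial (Clopper-Pearson) 95% interval. Levels carry exact Poisson 95% intervals. Ratios were computed over all genes with a symbol (51 genes have none) and at least 20 counts in either library. A library at 0 was set to 3 counts per library, and called means at least 2-fold with an interval excluding 0. Since counts of the 2 cell types come from separate tables, they were joined by gene ID and scaled together for DCs over T cells. There are no p-values, since each group has 1 library.

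The 7 receptor genes, the gene lists and the markers were chosen with earlier results of these data known. All 7 were named, with the 3 most abundant genes of each list, any with at least 100 counts and a ratio at least 2 from 0 on the log2 scale, and the 2 nearest genes by profile. List genes were described for treated over PBS only, and 1 gene that meets the rule there is not reported here. Marker lists were for T, NK, B, conventional and plasmacytoid dendritic, macrophage, monocyte, neutrophil, fibroblast, MC38 epithelial and erythroid cells. Of the plasmacytoid markers, Bst2 alone had 194 and 406 CPM in PBS and treated DCs, most of the sums given next. Of the 5 plasmacytoid markers measured in DCs, 2 were called higher, 2 lower and 1 neither. Summed CPM in PBS and treated DCs were 48.2 and 17.9 for B, 216 and 444 for plasmacytoid, 215 and 181 for fibroblast, 37.0 and 55.3 for epithelial and 231 and 384 for erythroid markers. In PBS and treated T cells they were 2.47 and 7.47, 398 and 576, 290 and 163, 6.17 and 1.41, and 448 and 621 in the same order, 402 and 311 for conventional dendritic cells, 2.09 and 2.00 for neutrophils and 3059 and 4791 for monocyte markers, mostly Ly6c2, which T cells also express. Promoter sequences came from RefSeq (GRCm38.p6) and no protein sequence was used here, so planned protein comparisons were not made. Alternatives were upper-quartile scaling, size factors of DESeq2 1.42.0, total-count CPM, deposited FPKM, TMM over 4 libraries, minimum counts of 1 and 100, 20 counts in both libraries, log2(CPM + 1), 1.5-fold and 4-fold thresholds, and the median of all genes set to 0. The method was tested on simulated data with counting error only.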

Additional observations from a re-analysis of the deposited data

Results flagged for a closer look

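Cxcr3 and Ccr2 had log2 ratios of treated over PBS on opposite sides of 0 in DCs and T cells, each with a counting interval that excluded 0. For Cxcr3 the ratio in DCs minus that in T cells was -6.00 on the log2 scale, with the DC ratio at its bound, since Cxcr3 had 212 counts in PBS DCs and 0 in treated DCs against 1809 and 2914 in T cells. For Ccr2 the same difference was 0.81, from 0.36 in DCs and -0.44 in T cells. With 1 library per group neither difference was tested, and in both cell types the ratio of Ccr2 was under 2-fold.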

How the results depend on the processing

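No paired analysis was possible because each group has 1 library. Of the recomputed receptor ratios none changed sign while called, and Ccr1 in DCs, not called, went from -0.27 to 0.08 with the median of all genes set to 0. In DCs the count of lower receptors went from 2 to 1 with 20 counts required in both libraries (Cxcr3 left out) and to 1 at 4-fold (Ccrl2 lost), and that of higher receptors from 1 to 2 at 1.5-fold (Cxcr4 added). In T cells 2 receptors were called, 1 of them higher (Cxcr4), with total-count CPM, with deposited FPKM and with the median of all genes set to 0. At 1.5-fold 4 were called there, 3 of them higher (Cxcr3, Cxcr4 and Cx3cr1), and at 4-fold 0 were called and 0 lower. Between treated DCs and T cells the lower receptors were 1 with 20 counts in both libraries. Setting the median of all genes to 0 raised every log2 ratio by 0.36 in DCs, 0.17 for PBS DCs over T cells and 0.43 for treated DCs over T cells. Requiring 20 counts in both libraries lowered the number of all called genes from 7429 to 4123 in DCs, 4830 to 2762 in T cells, 6855 to 4060 for PBS and 7894 to 4116 for treated DCs over T cells, and moved the higher share of DC calls from 41.9% to 55.7%. At 4-fold 2777 genes were called in T cells and 4398 for PBS DCs over T cells. Depth limits Cxcr4, with at most 87 counts in any library, and the bounds for Cxcr3 and Cxcr6.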
